A study of Homo sapiens with 18 samples.

Results

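Messenger RNA of 10 chromatin regulators whose genes are recurrently mutated in lymphoma was followed in U2932 and Ly1, 2 human cell lines from diffuse large B cell lymphoma. The genes were EZH2, EED, SUZ12, KMT2D, CREBBP, EP300, ARID1A, SMARCA4, TET2 and CHD2. They were taken by gene name from the deposited count table, where they are 10 of 60656 genes, and all 10 passed the filter on low counts in each fit. The 6 groups of 3 libraries were U2932 cells given SGC-GAK-1 at 1 µM for 12 h, U2932 cells given it for 24 h and U2932 cells given the solvent DMSO, and Ly1 cells in the same 3 states. Cyclin G-associated kinase (GAK), which helps strip clathrin from endocytic vesicles, is the target that SGC-GAK-1 inhibits.

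The labels call U2932 an activated B cell (ABC) line and Ly1 a germinal centre B cell (GCB) line. Each type is represented by 1 line, so lines and not types are compared. U2932 grew in RPMI medium and Ly1 in IMDM, so line and medium cannot be told apart. No time is given for the DMSO libraries. The same 3 therefore serve both treated times of a line, and comparisons that use them are not independent. The labels do not say whether the replicates were separate cultures, so that p-values reflect no more than the spread among them, which may be technical. RNA came from whole cultures, in which fewer cells of a kind and less RNA per cell cannot be told apart. Mutations of the genes in these lines were not analysed here.

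Polycomb repressive complex 2 (PRC2) is built from EZH2, EED and SUZ12 and methylates lysine 27 of histone H3, a mark of silenced genes. In germinal centre B cells it holds down cell cycle inhibitors and genes of plasma cell differentiation. KMT2D places methyl groups on lysine 4 of histone H3 at enhancers, where CREBBP and EP300 acetylate lysine 27, and the repressor BCL6 counters them through deacetylases. ARID1A and SMARCA4 belong to the SWI/SNF nucleosome remodellers, TET2 oxidises methylated cytosine in DNA, and CHD2 is an ATP-dependent remodeller of the CHD family.

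Libraries held 23236970 to 26316407 counts in U2932 and 22549853 to 29386802 in Ly1. At that depth 3 counts, the limit that a count of 0 allows, equal 0.104 to 0.138 CPM, for counting error only, where CPM are counts over library sizes that were adjusted by TMM, a scaling for RNA composition. The lowest value of any of the 10 genes in any library was 4.31 CPM. Of the B cell markers, CD79A averaged 668 ± 23.9 CPM in U2932 and 944 ± 84.3 CPM in Ly1 with DMSO (SD, n = 3 each), and PAX5 493 ± 24.3 CPM in U2932 and 518 ± 13.4 CPM in Ly1. The ABC markers IRF4, CCND2, FOXP1, PIM1 and ENTPD1 summed to 778 to 868 CPM in U2932 and 192 to 301 CPM in Ly1. The GCB markers MME, BCL6, MYBL1, LMO2 and SERPINA9 summed to 490 to 673 CPM in U2932 and 1200 to 1560 CPM in Ly1. LMO2 went against the labels, at 6.88, 5.38 and 16.4 CPM in U2932 with DMSO and 0, 0.0405 and 0 CPM in Ly1 with DMSO. SERPINA9 did too, at 101, 107 and 112 CPM in U2932 with DMSO and 0.0347, 0 and 0.909 CPM in Ly1 with DMSO. Markers of T and NK cells summed to at most 8.37 CPM in U2932 and 5.97 CPM in Ly1, and myeloid markers to at most 1.2 CPM in U2932 and 0.131 CPM in Ly1. Stromal and epithelial markers summed to 30.1 to 40 CPM in U2932 and 5.79 to 10.4 CPM in Ly1.

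In 5 of the 6 groups the third library stood apart from the other two. In those groups the chi-square of the counts per degree of freedom was 22.3 to 95.3 for the third library against either of the others, and 3.35 to 8.87 between the first and second. In Ly1 at 12 h it was 13.8 and 9.09 for the third library and 8.21 between the first and second. Among genes of at least 5 CPM, the share that differed over 1.5-fold between the third library and the mean of the first and second was 11.3%, 5.44% and 5.08% in U2932 with DMSO, 12 h and 24 h. The same share was 8.99%, 1.3% and 14.2% in Ly1 with DMSO, 12 h and 24 h. CCND2 shows the split in U2932, with 6.87, 7 and 4.98 CPM in the third libraries of DMSO, 12 h and 24 h and 45.3 to 55.5 CPM in the first and second. Results that rest on the third libraries are given with and without them.

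The promoters of the PRC2 core genes are shown because these 3 subunits form 1 complex and were read side by side below. Each line gives the 300 bases from 250 before to 50 after the RefSeq start (GRCh38.p14), from 5′ to 3′ on the gene's strand. Capitals mark E2F words and CCAAT boxes found on either strand.
EZH2, chr7:148884242-148884541, minus strand: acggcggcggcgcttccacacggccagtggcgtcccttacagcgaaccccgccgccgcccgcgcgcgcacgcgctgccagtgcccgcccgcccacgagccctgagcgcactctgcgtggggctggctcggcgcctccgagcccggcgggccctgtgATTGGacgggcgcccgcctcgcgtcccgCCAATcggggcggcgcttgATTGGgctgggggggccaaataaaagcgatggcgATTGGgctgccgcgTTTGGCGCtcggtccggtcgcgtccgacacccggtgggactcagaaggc
EED, chr11:86244503-86244802, plus strand: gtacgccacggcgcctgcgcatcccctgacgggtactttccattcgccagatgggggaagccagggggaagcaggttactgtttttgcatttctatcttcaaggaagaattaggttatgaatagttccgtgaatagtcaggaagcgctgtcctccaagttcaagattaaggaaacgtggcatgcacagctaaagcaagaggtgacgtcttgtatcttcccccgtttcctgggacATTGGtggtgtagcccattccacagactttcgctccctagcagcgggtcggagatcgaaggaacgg
SUZ12, chr17:31936757-31937056, plus strand: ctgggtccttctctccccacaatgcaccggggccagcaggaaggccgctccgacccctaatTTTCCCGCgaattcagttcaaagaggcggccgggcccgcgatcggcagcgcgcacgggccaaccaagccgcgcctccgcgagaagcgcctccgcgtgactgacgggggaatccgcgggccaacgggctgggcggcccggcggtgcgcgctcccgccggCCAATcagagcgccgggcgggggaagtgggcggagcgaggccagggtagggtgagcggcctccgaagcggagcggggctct
The E2F words searched were TTTCCCGC, TTTGGCGC, TTTCGCGC and TTTGCCGC, the CCAAT box was CCAAT and the E-box was CACGTG, each on both strands, and no capitals of one motif overlap another. EZH2 has an E2F word from base 2 after its start and 4 CCAAT boxes, SUZ12 has an E2F word 189 bases upstream and 1 CCAAT box, and EED has 1 CCAAT box. Of 35116 RefSeq promoter windows of this length, 3.31% hold one of the E2F words, 34.6% a CCAAT box and 7.26% an E-box. KMT2D and TET2 have an E-box each, and the windows of CREBBP, EP300, ARID1A, SMARCA4 and CHD2 hold none of these letters. A match is a run of letters and says nothing of binding.

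Before treatment the lines differed in most of these genes. With DMSO, 6 of the 10 were higher in U2932 than in Ly1 (EZH2, EED, KMT2D, CREBBP, TET2 and CHD2), 2 were lower (ARID1A and SMARCA4), and SUZ12 and EP300 did not pass the test. The largest difference was in TET2, at 4.13-fold, and the other called genes lay between 0.70-fold (ARID1A) and 1.87-fold (CREBBP). A gene was called at an adjusted p under 0.05 in the quasi-likelihood F test of edgeR, adjusted by Benjamini and Hochberg's method over all genes tested, the source of every adjusted p below unless another tool is named. The same test called 63.0% of all 16191 genes tested, 5358 higher in U2932 and 4849 lower, so the count of 8 of 10 is not read as particular to these genes. The counts of the gene lists between lines below stand beside the same share, and whether they differ from it was not tested. The median log2 difference of the 10, U2932 minus Ly1, was 0.54, against 0.02 over all genes tested. The 3 DMSO libraries of the lines did not overlap for 8 of the 10 genes, beside 65.4% of all genes tested. Over all 9 libraries of each line, treated ones included, 6 of the 10 did not overlap, beside 47.1% of all genes tested.

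**Figure D1:**
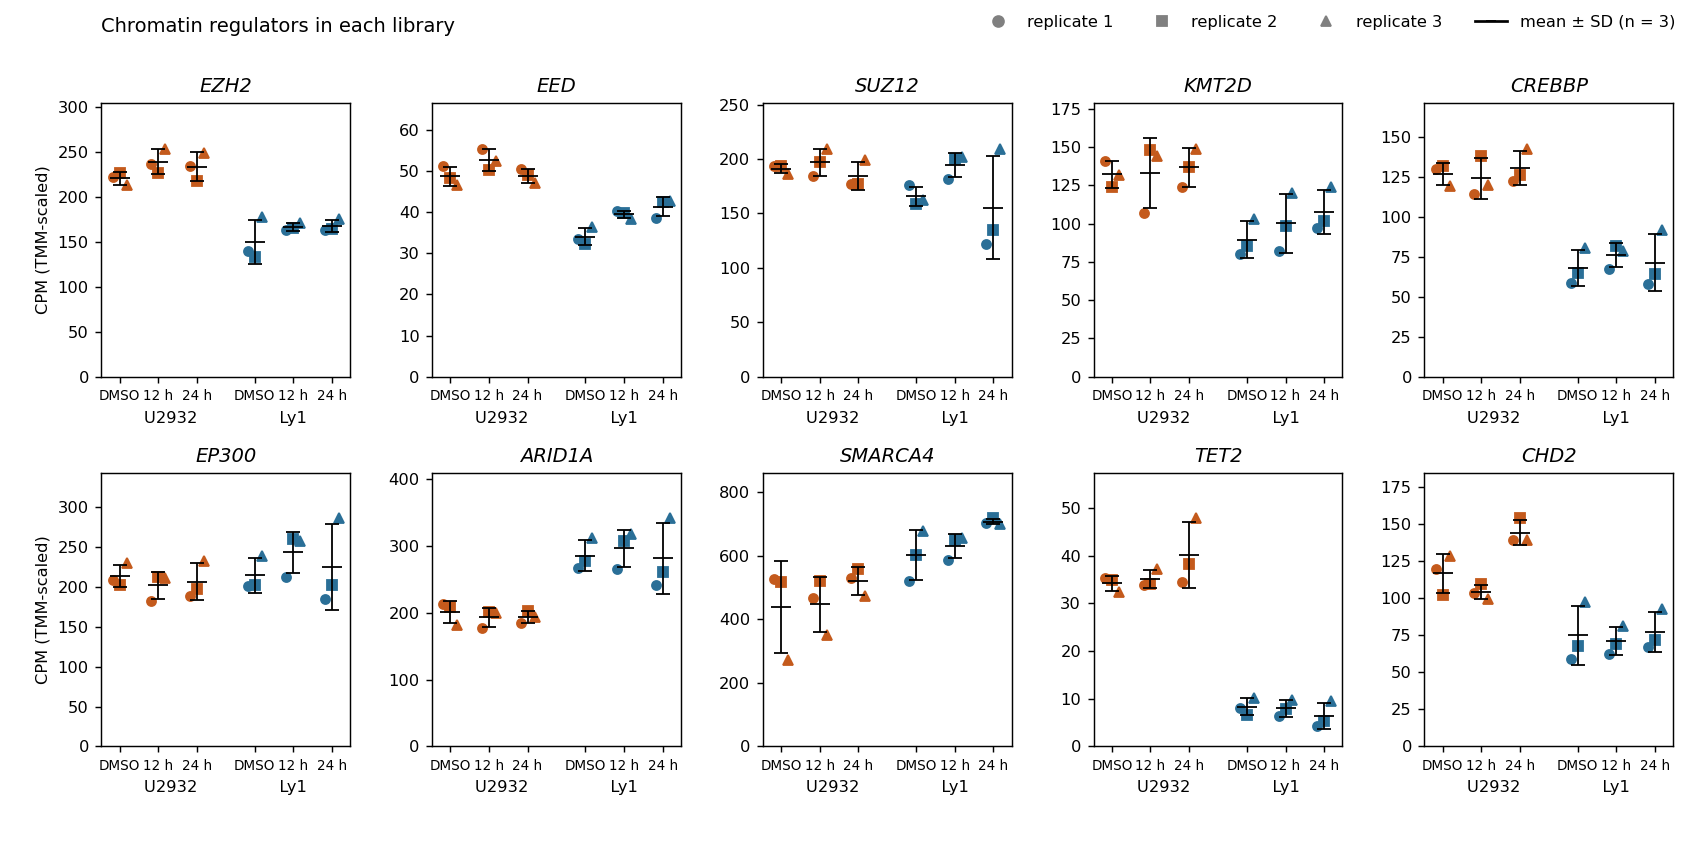
CPM of each of the 10 genes (vertical axis, TMM-scaled, from 0) in every library of U2932 (orange) and Ly1 (blue), by DMSO, 12 h and 24 h; symbols give the replicate, and bars the mean ± SD of 3 libraries. TET2 separates the lines most, SMARCA4 is lowest in the third U2932 DMSO library at 273 CPM, and the third Ly1 library at 24 h is high for SUZ12, EP300 and ARID1A.

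To set genes side by side, levels were divided by kilobases of exon, counting all annotated exons of a gene together. This length can exceed that of the expressed transcript, by an amount that differs between genes, so the order is approximate. On this scale the order of the levels ran from EZH2 to TET2 in U2932. EZH2 stood at 48.8 ± 1.54 CPM per kb (SD, n = 3) in U2932 and 33.2 ± 5.31 in Ly1. SUZ12 followed in U2932 at 29.2 ± 0.625 CPM per kb, and had 25.3 ± 1.35 in Ly1. SMARCA4 had 27.8 ± 9.13 CPM per kb in U2932, an SD range that overlaps that of SUZ12, and at 38.1 ± 4.97 its mean was the highest of the 10 in Ly1, with an SD range that overlaps that of EZH2. EED, the smallest of the PRC2 subunits in level, had 6.94 ± 0.332 CPM per kb in U2932 and 4.85 ± 0.29 in Ly1. In U2932, EP300 at 17.1 ± 1.14 and ARID1A at 12.6 ± 1.05 CPM per kb lay in the middle. CREBBP at 8.19 ± 0.435 CPM per kb came next, above EED, CHD2 (6.88 ± 0.775) and KMT2D (6.45 ± 0.427), whose SD ranges overlap. In Ly1, ARID1A (17.9 ± 1.44) and EP300 (17.1 ± 1.73) overlapped in the middle, and EED overlapped CHD2 (4.42 ± 1.19), CREBBP (4.38 ± 0.722) and KMT2D (4.37 ± 0.585). TET2 was last in both lines, at 2.08 ± 0.0953 CPM per kb in U2932 and 0.503 ± 0.108 in Ly1.

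Among the PRC2 core, EZH2, the catalytic subunit, had 222, 227 and 213 CPM in U2932 with DMSO and 139.6, 133 and 178 CPM in Ly1 with DMSO. All U2932 libraries lay above all Ly1 libraries, treated ones included. The log2 difference, U2932 minus Ly1, was 0.56 ± 0.099 (SE, adjusted p = 7.78e-05). EED, which binds the methyl mark and stimulates the enzyme, had 51.2, 48.3 and 46.6 CPM in U2932 and 33.6, 32.3 and 36.3 CPM in Ly1, again with no overlap. Its log2 difference was 0.52 ± 0.082 (adjusted p = 2.24e-05). SUZ12, the scaffold subunit, had 193, 194 and 186 CPM in U2932 and 176, 159 and 163 CPM in Ly1. The DMSO libraries of the lines did not overlap, yet the log2 difference of 0.20 ± 0.14 missed the test (adjusted p = 0.212, 95% interval -0.09 to 0.50). Without the third libraries it was 0.21 and called (adjusted p = 0.00241). SUZ12 has a transcribed pseudogene copy, SUZ12P1, listed at 4.78% of its mean CPM, and reads of the pair may have been split by the counting.

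Of 9 partners of the complex, 3 were higher in U2932, 4 were lower and 2 were not called, with a median log2 difference of 0.02. JARID2, which helps recruit the complex, averaged 34.3 ± 3.75 CPM in U2932 and 9.17 ± 1.92 CPM in Ly1 (SD, n = 3 each), a log2 difference of 1.91 (adjusted p = 3.06e-09). PHF19, a Polycomb-like subunit, was higher by 0.92 (adjusted p = 1.14e-07), and PHF1, another Polycomb-like subunit, was lower, at -0.86 (adjusted p = 5.92e-05). LCOR was higher by 0.41 (adjusted p = 0.0423). In PRC1, the companion complex that marks histone H2A, 6 of 12 genes were higher and 4 lower, with a median of 0.31. BMI1 averaged 23.1 ± 5.44 CPM in U2932 and 10 ± 1.22 CPM in Ly1, and CBX7, a reader of methylated lysine 27, averaged 6.59 ± 1.22 CPM in U2932 and 19.1 ± 1.52 CPM in Ly1. CBX2 was higher by 0.72 on the log2 scale and PCGF6 lower, at -1.18.

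The list of genes that PRC2 restrains in germinal centre B cells held 5 genes, of which 4 were higher in U2932, none lower, and CDKN2A not called. IRF4, a factor of plasma cell differentiation that is also on the ABC marker list, averaged 544 ± 17.9 CPM in U2932 and 13.6 ± 5.99 CPM in Ly1. PRDM1, a repressor that drives plasma cell differentiation, averaged 33.8 ± 9.35 CPM in U2932 and 0.253 ± 0.12 CPM in Ly1. The cell cycle inhibitor CDKN2B averaged 11.4 ± 0.429 CPM in U2932 and 0.635 ± 0.239 CPM in Ly1, and CDKN1A, another, 78.9 ± 14.7 CPM in U2932 and 25.2 ± 2.45 CPM in Ly1. All 4 had adjusted p-values of 9.24e-08 or below.

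KMT2D, the enhancer methyltransferase, had 141, 124 and 132 CPM in U2932 with DMSO and 79.9, 85.5 and 103 CPM in Ly1 with DMSO. The DMSO groups did not overlap, although treated Ly1 libraries reached 124 CPM and the lowest treated U2932 library had 107 CPM. The log2 difference was 0.56 ± 0.15 (adjusted p = 0.00286). An opposite-strand gene inside its bounds, DDN-AS1, is listed at 5.9% of the mean CPM of KMT2D, and whether counting used strand is not stated. Of 13 genes of the methyltransferase complexes for lysine 4, 2 were higher in U2932, 4 were lower and 7 were not called. KMT2A, a relative of KMT2D that acts at promoters, averaged 229 ± 26.5 CPM in U2932 and 78.4 ± 4.83 CPM in Ly1, a log2 difference of 1.55 (adjusted p = 2.76e-08), and RBBP5, a core subunit, was higher by 0.31. PAXIP1 and PAGR1, which bind the KMT2C and KMT2D complexes, were lower, at -0.90 (adjusted p = 4.94e-08) and -0.35 (adjusted p = 0.0112).

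The paralogous acetyltransferases differed from each other. CREBBP had 129.9, 132 and 119 CPM in U2932 with DMSO and 58.4, 65 and 80.2 CPM in Ly1 with DMSO. No U2932 library, treated or not, overlapped a Ly1 library. The log2 difference was 0.90 ± 0.15 (adjusted p = 3.26e-05), or 1.87-fold. EP300 had 209, 202 and 229.5 CPM in U2932 and 201, 202 and 239 CPM in Ly1, values that interleave. Its log2 difference was -0.0043 ± 0.14 (adjusted p = 0.981), with a 95% interval of -0.30 to 0.29. Of 7 other lysine acetyltransferases, 4 were lower in U2932, none was higher and 3 were not called, with a median of -0.37. KAT2A averaged 32.5 ± 4.4 CPM in U2932 and 102 ± 7.83 CPM in Ly1, and KAT2B, KAT6B and KAT8 were lower too, at -0.67, -0.62 and -0.37 on the log2 scale. Of 7 genes that counter acetylation, 5 were lower in U2932 and 2 were not called. HDAC1 averaged 217 ± 7.1 CPM in U2932 and 679 ± 18.2 CPM in Ly1, a log2 difference of -1.65 (adjusted p = 1.18e-12). BCL6, the germinal centre repressor, averaged 361 ± 8.99 CPM in U2932 and 641 ± 65.2 CPM in Ly1, HDAC2 was at -1.09 and the corepressor NCOR1 at -0.64.

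Of the SWI/SNF members, ARID1A was lower in U2932, and the call of SMARCA4 did not hold without single libraries. ARID1A, the DNA-binding subunit of the BAF form, had 213, 208 and 182 CPM in U2932 with DMSO and 267, 278 and 311 CPM in Ly1 with DMSO. Every U2932 library, treated ones included, lay below every Ly1 library. The log2 difference was -0.51 ± 0.12 (adjusted p = 0.0011), or 0.70-fold. SMARCA4, the ATPase, had 527, 518.5 and 273 CPM in U2932 and 522, 602 and 678.5 CPM in Ly1. The groups overlap, and the third U2932 library alone is far below the rest. The log2 difference was -0.45 ± 0.19 (adjusted p = 0.0452). Without the third U2932 DMSO library it was -0.20 (adjusted p = 0.224), without the third Ly1 DMSO library -0.33 (adjusted p = 0.196), without the second Ly1 DMSO library -0.45 (adjusted p = 0.0851), and without the third library of every group -0.11 (adjusted p = 0.106). Other settings that ended this call are listed with the processing alternatives, so SMARCA4 is not a stable difference. Without the third libraries 8 of the 10 genes were called, SUZ12 in place of SMARCA4, beside 73.4% of all genes tested.

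**Figure D2:**
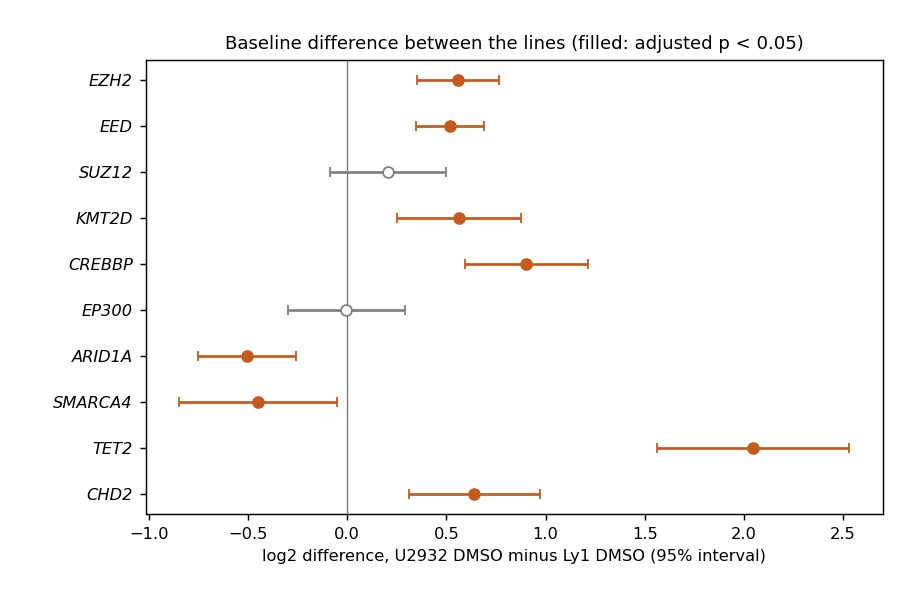
Fitted log2 difference in DMSO, U2932 minus Ly1 (horizontal axis), for each of the 10 genes, with its 95% interval; filled points passed an adjusted p of 0.05. TET2 lies farthest from 0 at 2.05, EP300 sits at 0, and the interval of SMARCA4 ends close to 0.

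Of 24 other SWI/SNF subunits, 5 were higher in U2932, 10 were lower and 9 were not called, with a median of -0.10. SS18 averaged 678 ± 70.9 CPM in U2932 and 153.5 ± 10.1 CPM in Ly1, and DPF1 11.7 ± 2.93 CPM in U2932 and 2.19 ± 0.26 CPM in Ly1. BRD9, a bromodomain subunit of the non-canonical form, averaged 15.4 ± 3.51 CPM in U2932 and 64.9 ± 1.49 CPM in Ly1. SMARCD3 averaged 0.398 ± 0.145 CPM in U2932 and 7.55 ± 2.85 CPM in Ly1. These 4 had adjusted p-values of 8.9e-08 or below.

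TET2 had 35.3, 34.9 and 32.4 CPM in U2932 with DMSO and 8.04, 6.64 and 10.2 CPM in Ly1 with DMSO. The lowest of all 9 U2932 libraries, at 32.4 CPM, was above the highest Ly1 library, at 10.2 CPM. The log2 difference was 2.05 ± 0.23 (adjusted p = 4.4e-07), with a 95% interval of 1.56 to 2.53, and it ranged from 1.91 to 2.25 over the alternatives tried. Of 9 other genes of DNA methylation and its removal, 5 were higher in U2932, none was lower and 4 were not called, with a median of 0.97. TDG, the glycosylase that removes oxidised cytosine, averaged 70.4 ± 10.6 CPM in U2932 and 22.4 ± 0.547 CPM in Ly1. TET3 averaged 38.2 ± 1.6 CPM in U2932 and 19.5 ± 0.934 CPM in Ly1, and TET1, with 5.75 ± 2.43 CPM in U2932 and 1.47 ± 1.27 CPM in Ly1, was also called (adjusted p = 0.00693). The methyltransferase DNMT3B averaged 11.5 ± 2.53 CPM in U2932 and 5.88 ± 1.06 CPM in Ly1. All 3 TET genes were called higher in U2932 than in Ly1, but TET1 was level in the third DMSO libraries. There it had 2.98 CPM in U2932 and 2.86 CPM in Ly1. The first and second had 6.77 and 7.51 CPM in U2932 and 1.18 and 0.36 CPM in Ly1. A fit of TET1 without the third libraries is not given.

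CHD2 had 119, 102 and 128 CPM in U2932 with DMSO and 59.3, 67.8 and 97.7 CPM in Ly1 with DMSO. The lines did not overlap in DMSO or over all libraries, although the third Ly1 DMSO library came close. The log2 difference was 0.64 ± 0.16 (adjusted p = 0.00167). Of 7 other CHD genes, 2 were higher in U2932 (CHD1 by 0.82 and CHD8 by 0.64 on the log2 scale), 2 were lower and 3 were not called. CHD7 averaged 76.3 ± 5.72 CPM in U2932 and 272 ± 35 CPM in Ly1, and CHD3, a subunit of the NuRD complex, was lower at -0.87. Of 4 genes that remove methyl groups from lysine 27 or place them on lysine 36, NSD2 was higher in U2932, by 0.65 (adjusted p = 0.000341), and 3 were not called. Among cycling markers, 1 of 7 S phase genes was higher (TYMS, by 1.15), 1 lower (E2F1, at -0.60), and 1 of 6 genes of G2 and mitosis was higher (PLK1, by 0.70, adjusted p = 0.0469). PLK1 averaged 212 ± 89.8 CPM in U2932 and 131 ± 37.9 CPM in Ly1, SD ranges that overlap, and its call is close to the limit.

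After SGC-GAK-1 none of the 10 genes passed the main test, which did not use replicate numbers, in either line. With the replicate number as a block CHD2 passed in U2932, as given below. In U2932, 0 of 10 passed at 12 h, at 24 h, or between 24 h and 12 h, where 0%, 0% and 0% of all 15138 genes tested were called. At an unadjusted p under 0.05 the counts of the 10 were 0, 2 (CHD2 and TET2) and 1 (CHD2), beside 3.42%, 11.3% and 8.42% of all genes. In Ly1, 0 of 10 passed at 12 h, 24 h and 24 h against 12 h, where 0%, 0.550% and 0% of 14005 genes were called, and the counts at an unadjusted p under 0.05 were 1 (EED), 1 (EED) and 0, beside 6.13%, 16.5% and 10.3% of all genes. The test of a difference in response between the lines called 0 of 10 at 12 h and at 24 h, with 0% and 0% of 16191 genes called. At an unadjusted p under 0.05 it gave 0 and 1 (EED), beside 2.5% and 8.33% of all genes. Limma voom also called 0 of the 10 in each of these comparisons, and DESeq2 called 1, CHD2 between 24 h and 12 h in U2932. The median log2 change of the 10 was 0.02 at 12 h and 0.07 at 24 h in U2932, and 0.15 at 12 h and 0.07 at 24 h in Ly1. Over all genes tested these medians lay between -0.01 and 0.01 on the same scale.

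CHD2 came nearest to a call in U2932. It had 139.5, 154 and 139.2 CPM at 24 h, against 119, 102 and 128 CPM with DMSO, and 103, 109.6 and 99.8 CPM at 12 h. The 24 h libraries lay above all DMSO and all 12 h libraries, with no overlap. The share of all genes without overlap was not counted for the responses of either line. A lack of overlap is therefore not read as particular to a gene, here or below. The log2 change at 24 h against DMSO was 0.33 ± 0.090 (adjusted p = 0.268), and at 24 h against 12 h it was 0.49 ± 0.091 (adjusted p = 0.296). Within replicates 1, 2 and 3 the change between 24 h and 12 h was 0.43, 0.49 and 0.48. With the replicate number as a block CHD2 was called in both, at 0.33 (adjusted p = 0.0464) and 0.49 (adjusted p = 0.0232), as 1 of 10 genes beside 4.41% and 0.997% of all genes tested. DESeq2 called it between 24 h and 12 h at 0.48 (adjusted p = 0.00447), where it called 0.489% of all genes, and so did edgeR with no filter on low counts, at 0.48 (adjusted p = 0.0136), where 0.0775% were called. Without the third libraries CHD2 was the 1 gene of the 10 called in U2932, at 0.42 against DMSO (adjusted p = 0.000298) and 0.48 against 12 h (adjusted p = 0.000202), beside 9.01% and 6.19% of all genes.

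For the other 9 genes the U2932 libraries at 24 h and with DMSO overlapped. TET2 had 34.4, 38.1 and 47.8 CPM at 24 h, against 35.3, 34.9 and 32.4 CPM with DMSO, and the third 24 h library was highest. Its log2 change was 0.25 ± 0.11 (adjusted p = 0.44), and it was -0.04, 0.13 and 0.56 within replicates 1, 2 and 3. SMARCA4 had 530.2, 559 and 474 CPM at 24 h, against 527, 518.5 and 273 CPM with DMSO. Its change of 0.27 ± 0.25 (adjusted p = 0.729) was 0.01, 0.11 and 0.79 within replicates 1, 2 and 3, and the last of these uses the third DMSO library, which was low. The remaining 7 genes had fitted log2 changes between -0.034 (ARID1A) and 0.11 (EZH2) at 24 h. At 12 h the 10 genes lay between -0.16 (CHD2) and 0.12 (EZH2 and EED), each with an adjusted p of 0.999.

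**Figure D3:**
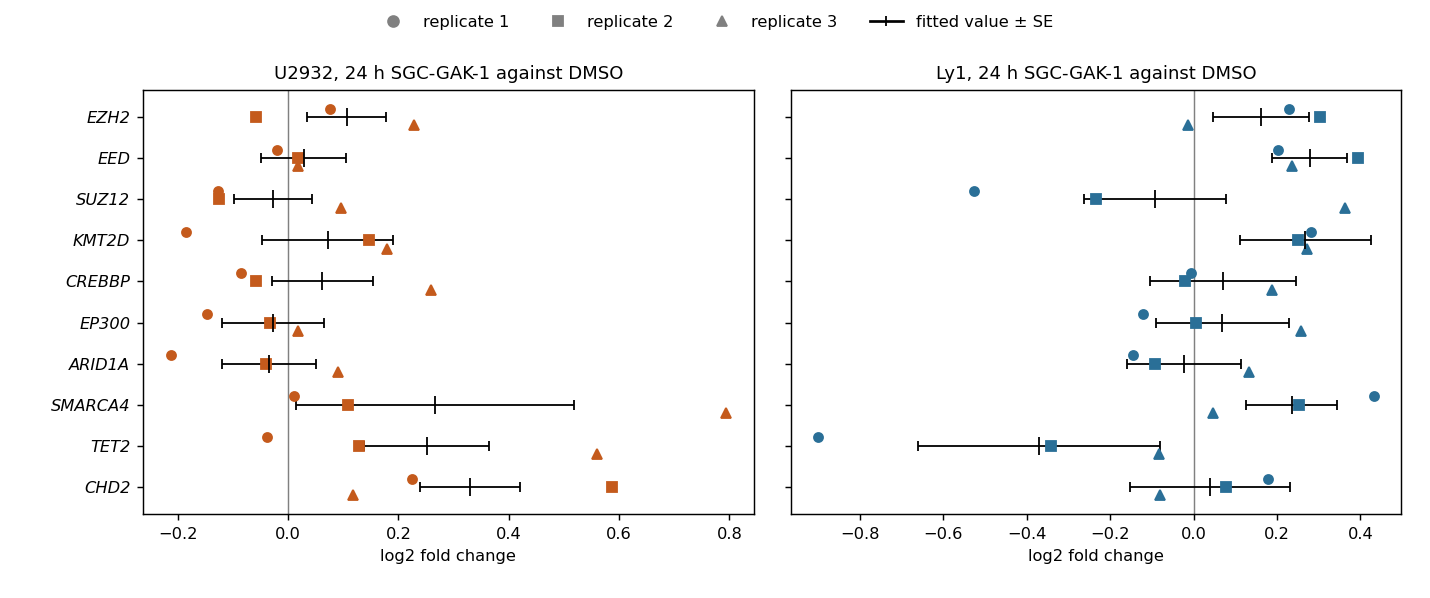
Log2 change at 24 h of SGC-GAK-1 against DMSO (horizontal axis) for each of the 10 genes in U2932 (left) and Ly1 (right); coloured symbols are the change within each replicate number, and the black bar is the fitted value ± SE. CHD2 lies above 0 in all 3 U2932 replicates, and SUZ12 in Ly1 runs from -0.53 in replicate 1 to 0.36 in replicate 3. Same-numbered Ly1 libraries of these groups were not counted as paired.

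In Ly1 none of the PRC2 subunits passed, and their fitted changes at 24 h did not share a sign. EED had 38.6, 42.5 and 42.8 CPM at 24 h, against 33.6, 32.3 and 36.3 CPM with DMSO, and 40.2, 39.7 and 38.4 CPM at 12 h. Both treated groups lay wholly above DMSO. The log2 change was 0.21 ± 0.089 at 12 h (adjusted p = 0.782) and 0.28 ± 0.089 at 24 h (adjusted p = 0.176), neither of which is a call. EZH2 had 163.6, 164 and 176 CPM at 24 h, against 139.6, 133 and 178 CPM with DMSO, where the third DMSO library is the highest of the 6. Its log2 change of 0.16 ± 0.11 was not called (adjusted p = 0.506). SUZ12 had 122, 135 and 209 CPM at 24 h, against 176, 159 and 163 CPM with DMSO, and 182, 200.1 and 202 CPM at 12 h. The first and second 24 h libraries were the lowest of the line and the third was the highest. The fitted change against DMSO was -0.092 ± 0.17 (adjusted p = 0.824), and within replicates 1, 2 and 3 it was -0.53, -0.23 and 0.36. Same-numbered Ly1 libraries of 24 h and DMSO were not counted as paired, so changes by number, here and below, are descriptions only.

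TET2 in Ly1 had 4.31, 5.24 and 9.6 CPM at 24 h, against 8.04, 6.64 and 10.2 CPM with DMSO. The groups overlapped, and each 24 h library lay below the DMSO library of its number. Its change of -0.37 ± 0.29 was not called (adjusted p = 0.55). SMARCA4 had 703.5, 717.5 and 700.5 CPM at 24 h, against 522, 602 and 678.5 CPM with DMSO. The groups did not overlap, and the change of 0.23 ± 0.11 was not called (adjusted p = 0.316). KMT2D had 97.1, 102 and 124 CPM at 24 h, against 79.9, 85.5 and 103 CPM with DMSO. Its change was 0.28, 0.25 and 0.27 between libraries numbered 1, 2 and 3, not counted as paired, and 0.27 ± 0.16 in the fit (adjusted p = 0.421). CREBBP, EP300, ARID1A and CHD2 had fitted changes between -0.022 (ARID1A) and 0.07 (CREBBP).

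Whether SUZ12 and TET2 passed in Ly1 at 24 h depended on the third 24 h library. Against the mean of the first and second it was higher by 1.01 on the log2 scale for TET2, 0.70 for SUZ12, 0.58 for CREBBP, 0.56 for EP300, 0.44 for ARID1A, 0.42 for CHD2 and 0.32 for KMT2D. It was level for EZH2 (0.10), EED (0.076) and SMARCA4 (-0.021). Without it, SUZ12 fell by 0.37 (edgeR, adjusted p = 0.013) and TET2 by 0.79 (adjusted p = 0.0395) at 24 h against DMSO, 2 of the 10 genes beside 21.2% of all genes tested. At 24 h against 12 h, SUZ12 alone was called without it, at -0.60 (adjusted p = 0.00283), beside 19.5% of all genes. The difference in response between the lines at 24 h, U2932 minus Ly1, was then called for TET2, at 1.07 (adjusted p = 0.0326), beside 3.57% of all genes. With all libraries that difference for TET2 was 0.60 ± 0.32 (adjusted p = 0.638).

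Without the third libraries of all groups, more of the 10 genes passed in Ly1, as did more of all genes. At 12 h EZH2 rose by 0.27, EED by 0.28 and CREBBP by 0.28, 3 of 10 beside 9% of all genes. At 24 h EZH2 rose by 0.27, EED by 0.31, KMT2D by 0.27 and SMARCA4 by 0.35, while SUZ12 fell by 0.37 and TET2 by 0.61, 6 of 10 beside 46.2% of all genes. Between 24 h and 12 h SMARCA4 rose by 0.21, and SUZ12 fell by 0.57, TET2 by 0.55, CREBBP by 0.28, EP300 by 0.28 and ARID1A by 0.18, 6 of 10 beside 41.7% of all genes. The response differed between the lines at 24 h, U2932 minus Ly1, for 5 of 10, beside 26.6% of all genes. TET2 (0.71), SUZ12 (0.30) and CHD2 (0.32) had the higher response in U2932, and EZH2 (-0.21) and SMARCA4 (-0.23) the lower one. These fits rest on 2 libraries a group, and whether the share of the 10 genes differs from that of all genes was not tested.

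Changes by summed exon length also differed between the same libraries. The 10 genes are long in summed exon length, with a median of 15.6 kb in GENCODE 29. The median of 10000 genes of at least 5 CPM was 5.24 kb. Of the 10, 7 fall in the longest of 4 equal classes of those genes, from 7.72 kb. In replicate 1 of Ly1 at 24 h against DMSO, the median log2 change of all genes was 0.19 in the shortest class and -0.21 in the longest. In replicate 2 these medians were 0.13 and -0.15, and in replicate 3 they were 0.02 and 0.07. Mitochondrial genes took 9.78%, 8.3% and 5.46% of counts in Ly1 at 24 h, against 6.02%, 5.77% and 4.72% with DMSO. In U2932 they took 6.15%, 4.18% and 6.68% at 24 h, against 7.04%, 5.98% and 9.86% with DMSO, and the median change by length class lay between -0.065 and 0.0035 in all 3 replicates. The part of length or RNA quality in the values of the 10 genes was not tested.

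**Figure D4:**
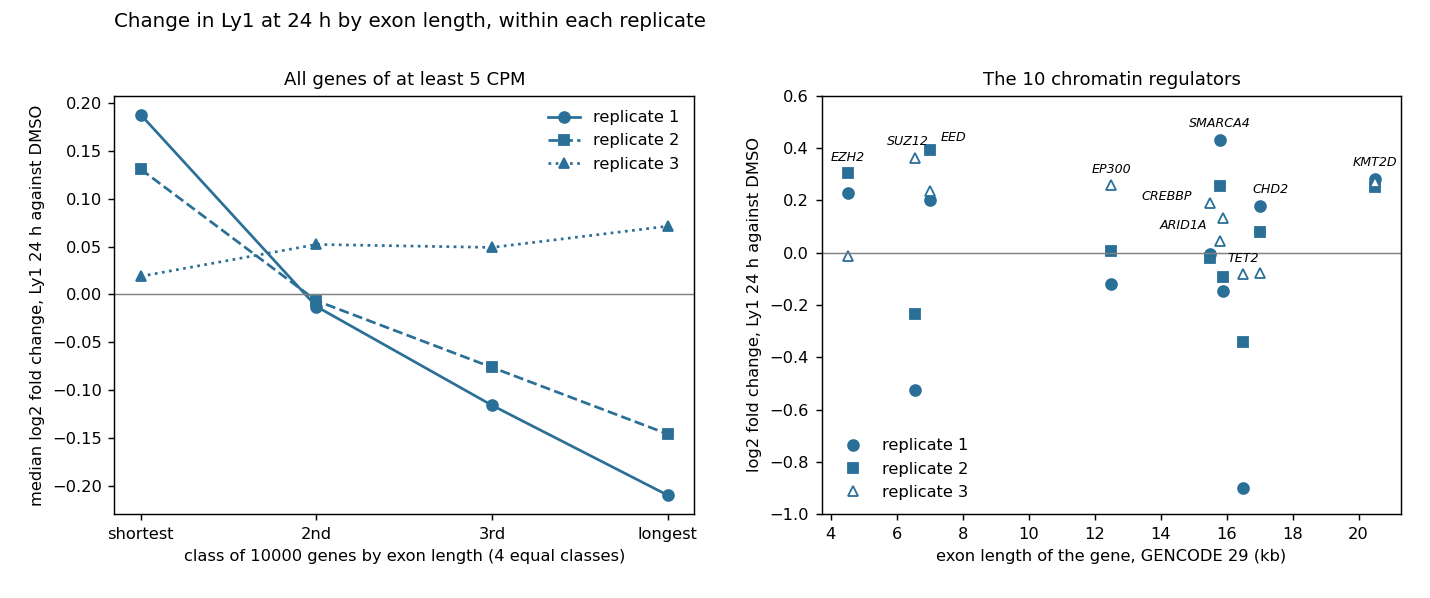
Left, median log2 change in Ly1 at 24 h against DMSO (vertical axis) for 10000 genes in 4 equal classes of summed exon length, one line per replicate. Right, the same change for each of the 10 chromatin regulators against its own exon length in kb; in replicates 1 and 2 the medians fall to -0.21 and -0.15 in the longest class, and in replicate 3 they do not. Same-numbered libraries of these groups were not counted as paired.

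The wider lists of chromatin genes gave no call in the responses. In U2932 and Ly1, at both times and between them, none of the genes tested of the PRC2 partners, PRC1, lysine 4 methyltransferase complexes, acetyltransferases and their antagonists, SWI/SNF, DNA methylation, CHD, lysine 27 demethylase, PRC2 target and S phase lists passed. In U2932 at 24 h, 1 of 12 PRC1 genes had a change above 0, with a median of -0.15, and 3 of 12 had an unadjusted p under 0.05, beside 11.3% of all genes. Of the S phase markers, 1 of 7 had a change above 0, with a median of -0.06, and 4 of 7 had an unadjusted p under 0.05. Of the markers of G2 and mitosis, 6 of 6 had a change above 0, with a median of 0.48, and none had an unadjusted p under 0.05. In the remaining lists of U2932 at 24 h 0 to 3 genes had an unadjusted p under 0.05. In Ly1 at 24 h 4 of 9 genes of DNA methylation, 2 of 4 PRC2 targets and 4 of 6 markers of G2 and mitosis did. The share of all genes there was 16.5%. In Ly1 at 12 h 5 of 6 markers of G2 and mitosis did, with a median change of 0.675, beside 6.13% of all genes. Each other list of Ly1 held 0 to 3 such genes at these times. The genes of the 110 that were called were 3 of 6 markers of G2 and mitosis in Ly1 at 24 h. CCNB1 rose by 1.24 ± 0.20, AURKA by 1.11 ± 0.18 and CDC20 by 0.90 ± 0.12, each with an adjusted p of 0.0392. These 3 calls ended on leaving out the first or second library of Ly1 with 24 h or DMSO, with changes of 0.84 to 1.19 and adjusted p-values of 0.138 to 0.212. They also ended in a fit of only the groups compared, with adjusted p-values of 0.225 to 0.227, and with scaling by library size only, at 0.0531 each. The 3 calls held under the other alternatives, which include DESeq2, the replicate block and fits without the third library of either group. Without the third libraries of all groups CCNB1 rose by 1.68 (adjusted p = 8.37e-18), AURKA by 1.46 (1.72e-16) and CDC20 by 1.1 (5.21e-15). That fit rests on 2 libraries a group and called 46.2% of all genes. Expression of the chromatin regulators was read in the same libraries, and the part of cell cycle stage in their values was not tested.

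Correlations across libraries are given as descriptions. After subtracting the mean of each line, the correlation over 18 libraries was 0.88 for CREBBP and EP300 (Pearson's r). It was 0.97 among the 9 Ly1 libraries and 0.51 among the 9 U2932 libraries. CREBBP and ARID1A had 0.95 in Ly1 and 0.58 in U2932, and EP300 and ARID1A 0.96 in Ly1 and 0.21 in U2932. Among PRC2 subunits, EZH2 and EED had 0.67 over both lines, 0.37 in U2932 and 0.77 in Ly1. EZH2 and SUZ12 had 0.24 over both lines, 0.57 in U2932 and 0.19 in Ly1. EED and SUZ12 had 0.094 over both lines, 0.042 in U2932 and 0.11 in Ly1. The third Ly1 library at 24 h, high in CREBBP, EP300, ARID1A and SUZ12, is among these points. So are the third U2932 libraries with DMSO and at 12 h, low in SMARCA4 at 273 and 351 CPM. All points share the same libraries. Among 10006 genes, those most like each member over the 18 libraries were PTBP3 and TNPO1 for SUZ12 (0.973 each), KLF13 for EP300 (0.958), CARM1 for SMARCA4 (0.951), ARHGAP35 for CREBBP (0.944) and YLPM1 for ARID1A (0.944). RIC1 was likest to TET2 (0.938), SOGA1 to KMT2D (0.906), ZFC3H1 to CHD2 (0.897), DDB2 to EZH2 (0.853) and AQP3 to EED (0.826).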

How the data were processed

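RNA was measured in 18 libraries of 2 established lines. Per the labels' protocols, libraries came from a NuGEN mRNA kit and were run on a NovaSeq instrument. Per the submitters' processing notes, cutadapt, STAR, Picard and hg38 were used, and for these the versions, and likewise the counter, the annotation and the use of strand, are not stated in the labels. The authors deposited whole-number read counts for 60656 genes, 27386 of them 0 in all libraries, with no other columns of samples (0).

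Counts were tested with edgeR 4.0.16 in R 4.3.3 (TMM scaling, filterByExpr, robust dispersions, quasi-likelihood F test, Benjamini-Hochberg adjustment over all genes tested, call at 0.05). Each line was fitted on its 9 libraries, and differences between lines on all 18. Standard errors come from the same fits. CPM are counts over TMM-scaled library sizes. Exon lengths are from GENCODE 29, in which 99.9% of 10006 genes matched, and promoters from RefSeq, in which 10 of 10 genes matched. Scripts were tested on simulated counts with the same dispersion for every gene and no library that stands apart. That check does not cover the spread of the third libraries. Alternatives used limma 3.58.1 and DESeq2 1.42.0, other scalings and filters, a replicate block, and fits without single libraries or the third library of every group. Figures were drawn with matplotlib 3.10.9.

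The members and the 12 gene lists (110 genes) were chosen with earlier results of these data known. One gene of the lists, with the sum of its list, is not reported here. All members are named, as is every list gene called in a response and, between lines, up to 4 called genes per list with the largest difference, if the higher line averaged 5 CPM or more. The likest genes are those with the highest Pearson's r of log2 CPM (prior count 2).

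Groups share replicate numbers, and the labels do not say what a number stands for. Same-numbered libraries were counted as paired where all 3 correlations of their deviations from group means passed 0.1. In U2932 the range was 0.38 to 0.666 between 12 h and DMSO, 0.336 to 0.563 between 24 h and DMSO, and 0.374 to 0.649 between the treated times. In Ly1 it was 0.213 to 0.434 between 12 h and DMSO and 0.1 (just over the limit unrounded) to 0.332 between the treated times. Between 24 h and DMSO in Ly1 it was 0.0733 to 0.211, and those were not counted as paired. The main fits held no replicate block, also for libraries counted as paired, and the block was run as an alternative. Replicates of a group differed by more than sampling noise (chi-square per degree of freedom 3.35 to 95.3), and none were merged.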

Additional observations from a re-analysis of the deposited data

How the results depend on the processing

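Counts of the 10 genes called in DMSO between lines stayed at 7 or 8 under each alternative, and EZH2, EED, KMT2D, CREBBP, ARID1A, TET2 and CHD2 were called in the same direction in each. SMARCA4 lost its call with DESeq2's size factors (-0.42, adjusted p = 0.0616), library size only (-0.44, 0.0653), DESeq2 (-0.42, 0.0506), a filter of 1 CPM in 3 libraries (-0.42, 0.063) and only the groups compared (-0.44, 0.151). In the main fits of the responses 0 genes were called with all libraries. Without the third libraries the counts became 3 (Ly1 12 h), 6 (Ly1 24 h), 6 (Ly1 24 h against 12 h), 1 (U2932 24 h), 1 (U2932 24 h against 12 h) and 5 (line difference at 24 h). With the replicate block, 1 gene was called in U2932 at 24 h and 1 at 24 h against 12 h, CHD2 in both, and the block changed no other call of the 10. DESeq2 called 1 and the fit with no filter 1, both CHD2 at 24 h against 12 h in U2932. Leaving out single libraries gave 0 to 2 calls in Ly1 at 24 h, 0 to 1 at 24 h against 12 h and 0 to 1 for the line difference at 24 h. The line difference of SMARCA4 at 24 h was 0.01 with all libraries and turned to -0.23 (adjusted p = 0.0411) without the third ones. Over all genes, the main count of calls and the highest over the alternatives, each without the third libraries, were 0 and 434 (U2932 12 h), 0 and 1369 (U2932 24 h), 0 and 1262 (Ly1 12 h), 77 and 6483 (Ly1 24 h), 0 and 940 (U2932 24 h against 12 h), 0 and 5841 (Ly1 24 h against 12 h), 0 and 729 and 0 and 4318 (line difference at 12 h and 24 h), and 10207 and 11895 between lines in DMSO. DESeq2 called 16, 157, 94, 573, 74, 5, 1, 56 and 10199 in the same order. The 77 calls in Ly1 at 24 h became 0 on leaving out the first or second library of either group, 0 with only the groups compared and 1 with library size only. The cause of these changes was not tested. The sign of changes that no setting called was not followed. The lowest value of the 10 genes is 4.31 CPM, and each group has 3 libraries.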
